A study of Rattus norvegicus with 32 samples.

Results

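Liver sinusoidal endothelial cells (LSECs) of rats with cirrhosis were compared with LSECs of rats with acute liver injury, both caused by inhaled carbon tetrachloride (CCl4), a solvent that injures hepatocytes once it is metabolised. The 11 libraries of the comparison, of 32 in the series, were chosen by their group label: 6 are labelled CCL4 treated rat and 5 are labelled as rats treated for 2 weeks. All rats of both groups were of the Wistar Han strain, and the study describes them as males that inhaled CCl4 and drank water with phenobarbital, an inducer of liver enzymes. Acute injury stands for 2 weeks of exposure. The label of the cirrhotic libraries names no duration, and the study's text gives 12 to 14 weeks and ascites for this stage. The study gives the weight of the rats and not their age. Rats exposed for longer may have been older and have drunk phenobarbital for longer, which cannot be told apart from the stage. The study describes the libraries of a stage as independent isolations of LSECs, so p-values measure the spread between isolations. LSECs were isolated 5 to 7 days after the last dose by digestion of the perfused liver and centrifugation over iodixanol, a method that enriches cells by density and does not sort them by a surface marker. The study also kept LSECs in culture to collect what they secrete, and whether RNA was taken before or after culture is not given in the sources used here. The sources used here name no batch, and any batch shared by the libraries of a stage cannot be told apart from that stage. Healthy (6 libraries) and fibrotic (6 weeks of CCl4, 5 libraries) LSECs of the same experiment are given below for orientation.

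LSECs line the hepatic sinusoid with a fenestrated wall that lacks a basement membrane, take up waste macromolecules through scavenger receptors, and send signals such as Wnt ligands, HGF and nitric oxide to hepatocytes and stellate cells. In chronic liver disease they lose fenestrae and gain features of ordinary capillaries, such as von Willebrand factor and a basement membrane, a change called capillarization. They keep their specialised state only in contact with blood flow and neighbouring cells, and blood flow acts on endothelium through factors such as Klf2.

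Totals ranged from 32037715 to 36916992 counts in acute and from 38812871 to 46464289 counts in cirrhotic libraries, with 17450 to 17881 and 18638 to 18996 genes detected. Levels are given as CPM, counts relative to the total of the library, scaled by the trimmed mean of M-values (TMM) over the 22 CCl4 libraries, and are not divided by gene length, so that levels of different genes cannot be compared. Libraries of a group lay 40.7 to 88.6 apart on the log2 CPM scale (Euclidean distance over the genes tested), and libraries of different groups 198 to 222 apart. The label LSEC was checked against 19 markers. Their summed level was 2968 to 3557 CPM in acute and 16370 to 21120 CPM in cirrhotic libraries, and in healthy and fibrotic LSECs it ranged from 20200 to 35980 and from 2151 to 3305 CPM. LSEC markers were thus detected in every library and were much lower in the acute and fibrotic groups. Where a marker differs in bulk RNA, fewer cells of a type and less RNA per cell cannot be told apart.

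Of 15005 genes tested, 10459 (69.7%) were differentially expressed genes (DEG) between cirrhotic and acute LSECs, at a fold-change above 1.5 and an unadjusted p under 0.05 from limma-voom. Of the genes tested 37.8% were higher and 31.9% lower in cirrhosis, and 10399 DEG (69.3% of the genes tested) also had an adjusted p under 0.05. In 65.9% of the genes tested each cirrhotic library lay on the same side of all acute ones, above them in 33.4% and below them in 32.4%. These shares are the background for each count given below. The size of the differences was not even on both sides. The median log2 fold change was 2.35 among the DEG that were higher and -1.22 among those that were lower. In 9007 genes with a mean log2 CPM of at least 3, 2359 were higher and 3478 lower, but over 16-fold differences numbered 262 and 27. Weakly expressed genes were mostly higher in cirrhosis. With a mean log2 CPM under 0, 61.4% of 2514 genes were higher and 17.7% lower, against 24.5% and 41.3% of 4136 genes between 4 and 6. In 94 of the genes higher in cirrhosis the 5 acute libraries held no count at all, so that their fitted fold change depends on the prior count and is no measure of size.

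**Figure D1:**
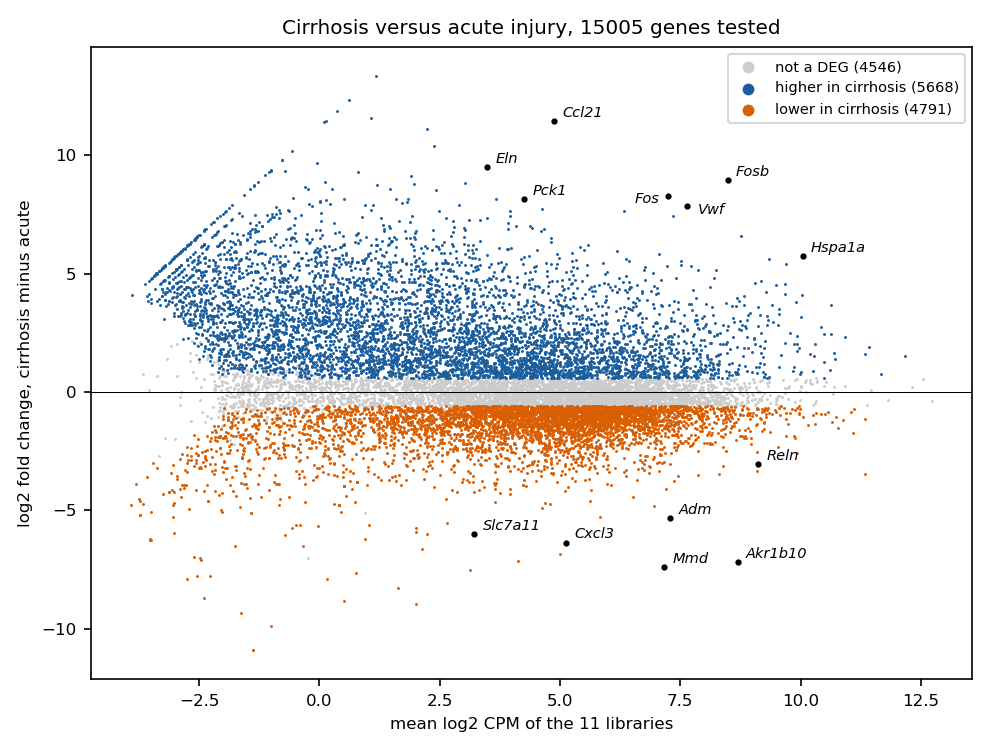
Log2 fold change of cirrhosis minus acute injury against the mean log2 CPM of the 11 libraries, one point per gene tested, with DEG in colour and 13 genes named. The cloud reaches further up than down, above all among weakly expressed genes on the left, where diagonal lines hold genes without counts in the acute libraries.

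The 15 largest rises among well expressed genes (mean log2 CPM of at least 3, groups without overlap) covered endothelial, matrix, early response and hepatocyte genes. Ccl21, a chemokine that lymphatic endothelium uses to draw in dendritic cells and T cells, was at 0.354, 0.436, 0.444, 0.253 and 0.316 CPM in the acute libraries and between 505 and 2140 CPM in cirrhosis (median 918). It was also low in healthy LSECs, at 1.24 to 7.56 CPM, so that cirrhotic libraries stood above all other groups. Its log2 fold change was 11.42 (SE 0.904, adjusted p = 1.52e-07). Vwf, the von Willebrand factor that tethers platelets, was at 11.5, 17.4, 6.89, 4.93 and 12.8 CPM in the acute libraries and between 1390 and 3500 CPM in cirrhosis (median 2140), a log2 fold change of 7.86 (SE 0.34, adjusted p = 8.43e-10). Healthy LSECs, however, held 1120 to 3880 CPM of Vwf, as much as the cirrhotic ones. Eln (elastin) and Col3a1 (type III collagen) had log2 fold changes of 9.49 and 7.66, and the elastic fibre protein Fbln2 of 7.63. Fosb and Fos, subunits of the transcription factor AP-1, had log2 fold changes of 8.94 and 8.26, and the endothelial early response gene Apold1 of 7.42. Genes of hepatocyte metabolism were among the 15, with Pck1 of gluconeogenesis (8.13), Akr1d1 of bile acid synthesis (7.45), Cyp2e1, the cytochrome that activates CCl4 (7.28), and Cps1 of the urea cycle (7.25). Fgf23, a hormone of phosphate balance (7.73), and Srpx (7.35) were also among them. Counts of Ccl21 may be divided among near-identical copies and are less certain than the others.

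The 15 largest falls were led by Mmd, a membrane protein of the progestin and adipoQ receptor family. Acute libraries held 2170, 2000, 1980, 2450 and 2390 CPM of it and cirrhotic ones between 9.4 and 21.8 CPM (median 12), which is a log2 fold change of -7.38 (SE 0.183, adjusted p = 5.1e-11). Fibrotic LSECs resembled the acute ones in Mmd (1720 to 2170 CPM) and healthy LSECs the cirrhotic ones (7.31 to 15.1 CPM). Akr1b10, an aldo-keto reductase that detoxifies aldehydes, was at 7420, 7030, 5210, 3860 and 6560 CPM in the acute libraries against 14.5 to 78.7 CPM in cirrhosis (median 46.2), a log2 fold change of -7.18 (SE 0.436, adjusted p = 1.48e-08). Ptprn, a phosphatase-like protein of secretory granules, fell by 6.82 on the log2 scale, the neutrophil chemokine Cxcl3 by 6.36 and the cystine transporter Slc7a11 by 6.00. The vasodilator peptides Adm (adrenomedullin) and Apln (apelin) fell by 5.32 and 4.68. Esm1 (endocan), a marker of sprouting tip cells, fell by 4.44. Aen and Gtse1, which p53 regulates, fell by 4.58 and 4.64, and the log2 fold changes of the pseudouridine synthase Pus7, of Ampd3, Cyp4f5, Cobll1 and Zfp52 were -4.30, -5.27, -4.82, -4.72 and -4.26. For all 30 genes the adjusted p from limma-voom was at most 1.71e-05.

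**Figure D2:**
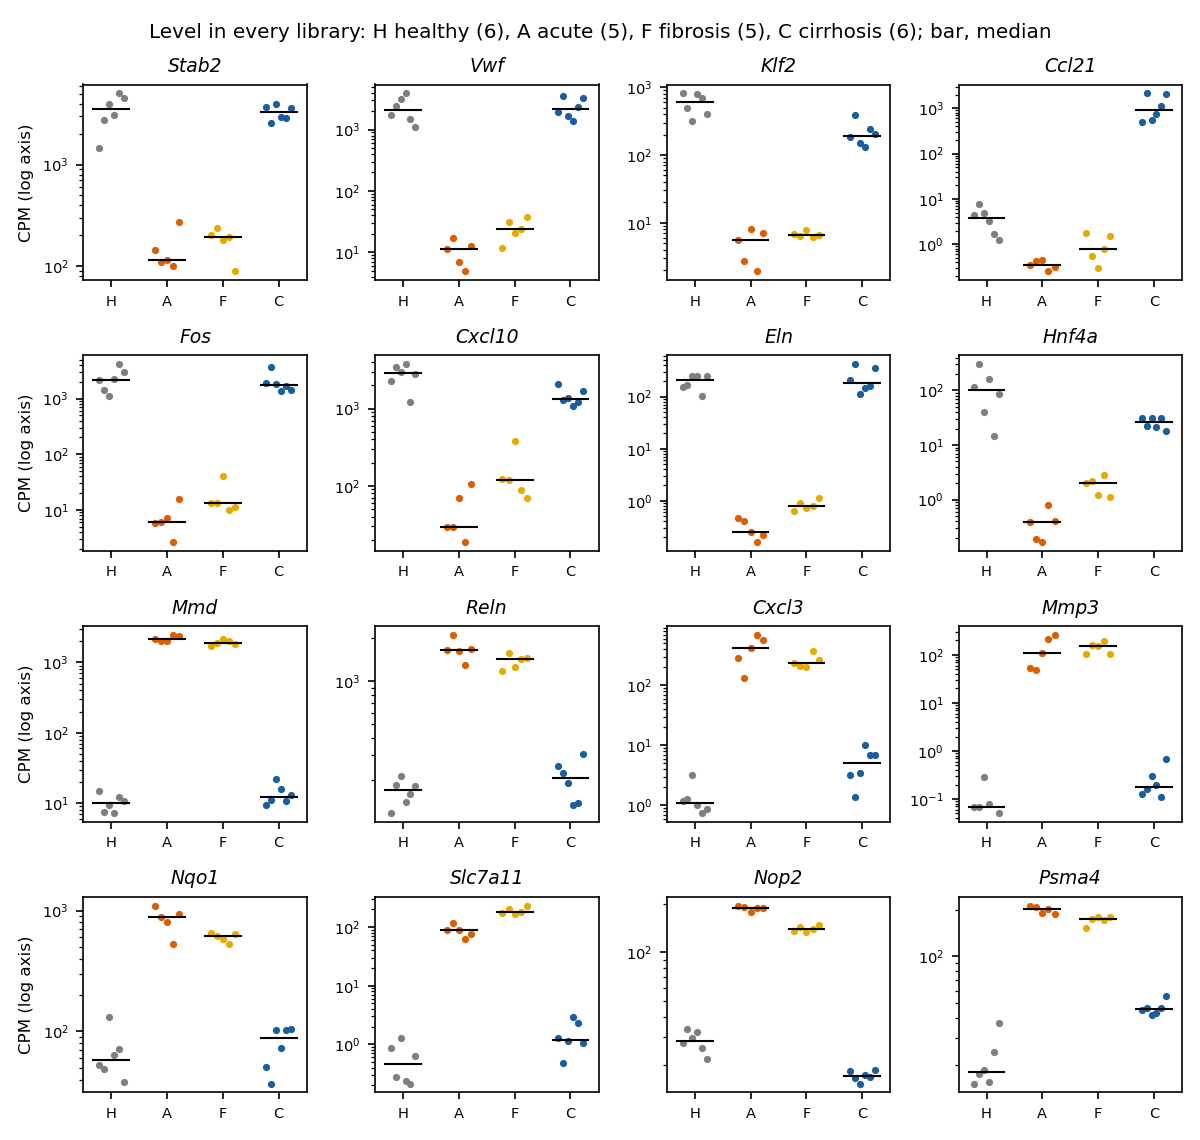
CPM of 16 genes in each of the 22 libraries of the CCl4 experiment on log axes, with a bar at the median. Healthy (H, untreated), acute (A), fibrotic (F) and cirrhotic (C) LSECs stand side by side. In each panel the acute and cirrhotic libraries do not overlap, and fibrotic libraries lie close to the acute ones, while healthy libraries lie on the side of the cirrhotic ones except in Ccl21 (a healthy library at 0 in Mmp3 is not drawn).

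Markers of LSECs were higher in cirrhosis than after acute injury. Of 19 tested, 18 rose and none fell, with a median log2 fold change of 3.02 beside 0.04 over all genes tested. Stab2, a scavenger receptor that clears hyaluronan, was at 145, 109, 114, 99.6 and 273 CPM in the acute libraries and between 2580 and 3980 CPM in cirrhosis (median 3290). Acute replicate 8 was the highest of its group and still far below the lowest cirrhotic library, and the log2 fold change was 4.57 (SE 0.251, adjusted p = 6.2e-09). The mannose receptor Mrc1 rose from 147 to 180 CPM to 1720 to 2340 CPM (log2 fold change 3.65), the inhibitory Fc receptor Fcgr2b (CD32b) by 2.44, the endothelial nuclease Dnase1l3 by 4.05 and the transcription factor Maf, which specifies sinusoidal endothelium, by 4.01. The Wnt enhancer Rspo3 was the one marker not called (log2 fold change 0.27). Of 17 scavenger and endocytic receptors, 11 rose and 1 fell, the transferrin receptor Tfrc (log2 fold change -3.54, 258 to 331 CPM in acute and 18.9 to 31.7 CPM in cirrhotic libraries).

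Pan-endothelial genes divided into those that rose and those that did not pass the test. Of 18 tested, 14 rose and none fell (median log2 fold change 2.20). Kdr, the main VEGF receptor, rose by 3.81, Nos3, the endothelial nitric oxide synthase, by 3.63, the phosphatase Ptprb by 2.35 and the TGF-beta co-receptor Eng by 2.04. Nos3 was at 28.1, 33.2, 33.6, 38.4 and 31.8 CPM in the acute libraries and between 374 and 493 CPM in cirrhosis. Its range in healthy LSECs was 551 to 1650 CPM. Cdh5, the cadherin of endothelial junctions, was at 1630, 2150, 1520, 1350 and 1320 CPM in acute and between 1330 and 1780 CPM in cirrhotic libraries (median 1450). These groups overlapped, and the log2 fold change of -0.07 (SE 0.134, adjusted p = 0.66) changed sign in 3 of the other settings tried. Erg, Sox17 and S1pr1 were not called either, with log2 fold changes of 0.53, 0.21 and -0.41. Pan-endothelial markers summed to 4254 to 5741 CPM in acute and to 13010 to 15900 CPM in cirrhotic libraries. In healthy LSECs their sum was 19350 to 29760 CPM, above every cirrhotic library.

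Genes of capillary and arterial endothelium, some of which are gained in capillarization, went both ways. Of 18 tested, 13 rose and 5 fell. Their sum was 1174 to 2192 CPM in acute and 10520 to 14190 CPM in cirrhotic libraries. The cirrhotic sums lay within the range of healthy LSECs, 9707 to 30660 CPM. Besides Vwf, the arterial connexin Gja4 rose by 6.06 (0.576 to 4.2 CPM in acute, 76.3 to 146 CPM in cirrhotic libraries) and the adhesion molecules Sele, Vcam1 and Icam1 by 5.73, 4.52 and 3.65. Vcam1 varied widely after acute injury, at 79, 49.1, 273, 42.6 and 588 CPM, and its lowest cirrhotic library held 1410 CPM. Healthy LSECs held 87.1 to 266 CPM of Gja4, 1060 to 4120 CPM of Vcam1 and 5450 to 21100 CPM of Icam1. Sele was higher in cirrhosis (64 to 205 CPM) than in healthy LSECs (9.92 to 34.5 CPM). Those that fell were Apln and Esm1, with the values given above, Angpt2, which loosens vessels, by 1.82, and a pair of caveolar genes. The caveolar genes Cav1 and Cav2 fell by 0.60 and 0.72 on the log2 scale. Cav1 overlapped between the groups and was not called in 10 other settings, and Cav2 lost its call in 2. In the list of caveolae, fenestrae and diaphragm genes, 7 of 12 rose and 2, these same caveolins, fell. Plvap, which forms the diaphragms of capillary fenestrae, was at 2.64, 4.93, 2.75, 4.88 and 4.14 CPM in the acute libraries and between 116 and 229 CPM in cirrhosis, a log2 fold change of 5.39 (SE 0.287, adjusted p = 4.77e-09), with 120 to 490 CPM in healthy LSECs. Sdpr (cavin-2) rose by 4.47.

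Lymphatic markers were few, with 5 of 6 tested higher in cirrhosis. The platelet and endothelial protein Mmrn1 was at or under 0.109 CPM in every acute library and between 65.6 and 307 CPM in cirrhosis, and was also low in healthy LSECs (0.143 to 0.787 CPM). Its fitted log2 fold change of 11.08 rests on very few acute counts. Prox1, the transcription factor that defines lymphatic endothelium, rose by 3.81, from 0.967 to 2.46 CPM to 17.3 to 24.5 CPM. Unlike Ccl21 and Mmrn1 it was present in healthy LSECs, at 6.39 to 19.4 CPM. Whether Prox1 came from lymphatic endothelium or from another cell type was not tested. Reln (reelin), which both lymphatic endothelium and stellate cells express, moved the other way. It was at 1650, 2120, 1620, 1310 and 1690 CPM in the acute libraries and between 134 and 306 CPM in cirrhosis (log2 fold change -3.06, SE 0.224, adjusted p = 7.71e-08). The endothelin receptor Ednrb was another gene for which cirrhosis stood above every other group. Acute libraries held 22.3, 17.9, 15.8, 18.8 and 18.3 CPM, cirrhotic ones 417 to 1260 CPM (median 750) and healthy ones 27.2 to 86.4 CPM, and the log2 fold change was 5.34 (SE 0.221, adjusted p = 6.29e-10).

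Transcription factors and signals that maintain endothelium rose with few exceptions. Of 27 factors of endothelial identity 23 rose and none fell, with a median log2 fold change of 1.44. Klf2, which is induced by blood flow, was at 5.61, 2.75, 8, 1.93 and 7.14 CPM in the acute libraries and between 131 and 384 CPM in cirrhosis, a log2 fold change of 5.55 (SE 0.434, adjusted p = 1.37e-07). Its range in healthy LSECs was 313 to 808 CPM. Erg, Sox17, Foxo1 and Zeb2 were the 4 not called (log2 fold changes of 0.53, 0.21, -0.14 and -0.54). All 13 genes of the Notch pathway that were tested rose (median log2 fold change 3.23). Among them were the ligand Dll4 (4.29, 8.86 to 18.5 CPM in acute and 183 to 310 CPM in cirrhotic libraries), the receptor Notch3 (4.99) and the targets Hey1 (5.63) and Heyl (6.03). Mean levels in healthy and cirrhotic LSECs were 4.04 and 17.9 CPM for Notch3, and 0.973 and 6.59 CPM for Heyl. For Hey1 they were 9.58 and 10.9 CPM, and for Dll4 783 and 251 CPM. Of 19 angiocrine genes 15 rose and 1 fell. Wnt9b, the ligand with which the central vein instructs hepatocytes, rose by 7.62 from at most 0.6 CPM to 38.2 to 101 CPM, and Hgf, the hepatocyte growth factor, by 3.88 from 11.6 to 31.7 CPM to 246 to 414 CPM. Hgf in healthy LSECs lay between 18.3 and 215 CPM. Bmp6, by which LSECs signal iron stores to hepatocytes, was the one that fell, with 182, 171, 189, 174 and 276 CPM in acute and 46.1 to 61.6 CPM in cirrhotic libraries (log2 fold change -1.92). The part of stellate cells and other liver cells in the Notch and angiocrine genes was not tested.

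The vasoactive genes of the nitric oxide and endothelin systems rose in 10 of 14 cases and fell in 2. Next to Nos3 and Ednrb, the fall of Ddah1, which degrades an inhibitor of nitric oxide synthase, was clear. It was at 159, 134, 134, 161 and 167 CPM in the acute libraries and between 31.6 and 58.4 CPM in cirrhosis (log2 fold change -1.97). Cav1 was the other gene of this list that fell. In the prostanoid list 8 of 15 rose and 3 fell, with the thromboxane receptor Tbxa2r higher by 5.18 while the prostaglandin E synthases Ptges and Ptges2 had log2 fold changes of -4.40 and -2.34. Of 15 genes of VEGF, angiopoietin and Tie signalling, 9 rose and 5 fell. Vegfc, a lymphatic growth factor, rose by 3.22, while Vegfa and Pgf, ligands of blood vessel growth, fell by 1.94 and 3.74.

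**Figure D3:**
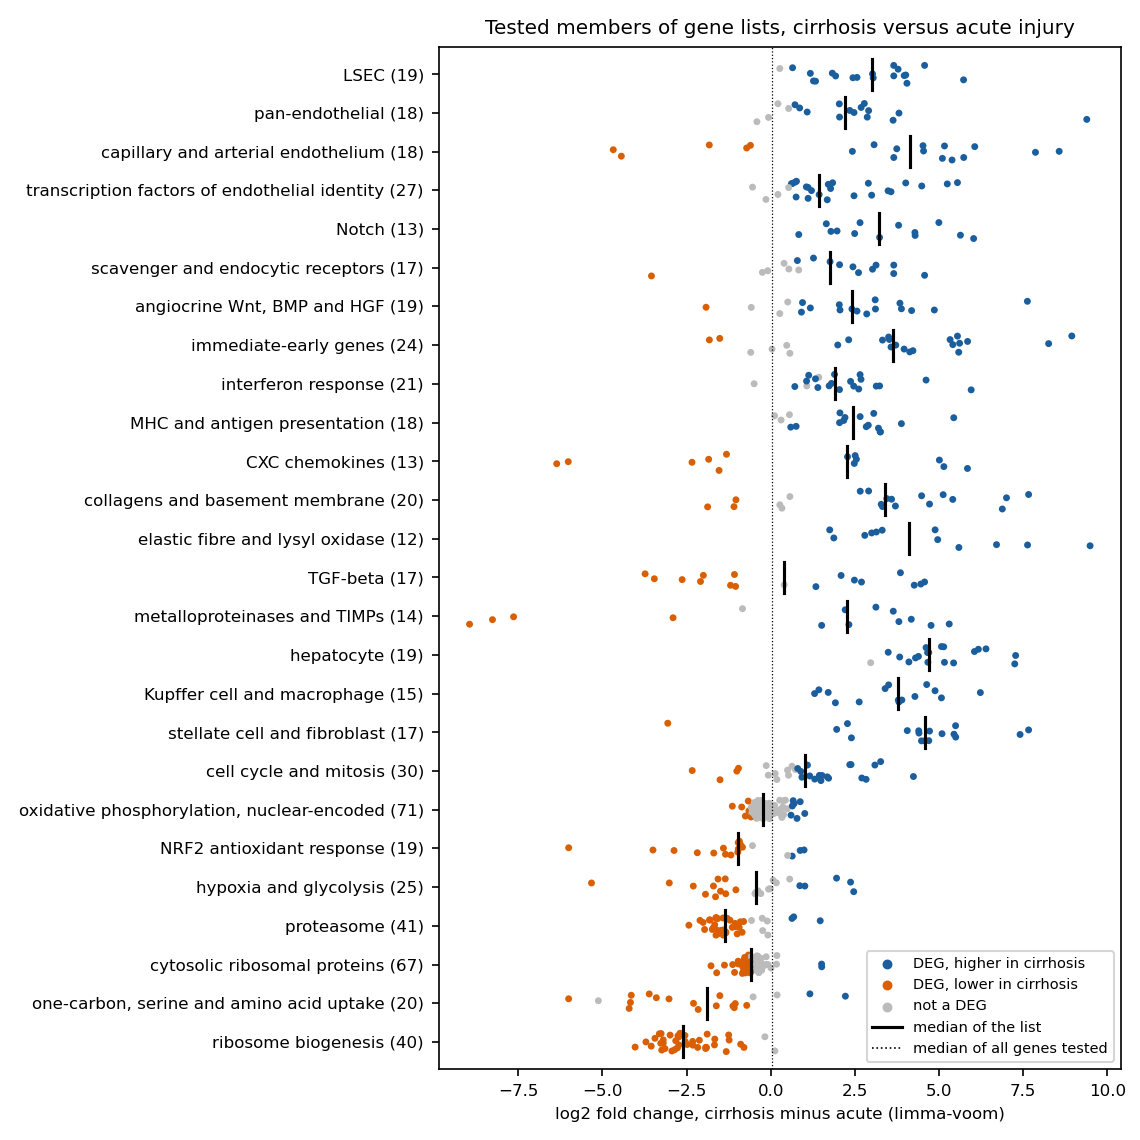
Log2 fold change of cirrhosis minus acute injury for each tested member of 26 gene lists (number tested in brackets), with DEG in colour, the list median as a bar and the median of all genes tested as a dotted line. Endothelial, Notch, interferon and elastic fibre genes lie to the right, and ribosome biogenesis, proteasome and amino acid uptake genes to the left.

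Immediate-early genes, which cells switch on within minutes of a stimulus and which also respond to tissue digestion, were higher in cirrhosis. Of 24 tested, 18 rose and 2 fell, with a median log2 fold change of 3.64. Fos was at 5.85, 5.94, 7.28, 2.65 and 15.9 CPM in the acute libraries and between 1380 and 3750 CPM in cirrhosis (median 1770), and Egr1 at 57.3 to 95.4 CPM and 2070 to 6440 CPM (log2 fold change 5.61). Healthy LSECs held 1090 to 4140 CPM of Fos and fibrotic ones 9.96 to 41 CPM. Summed over the list, levels were 3042 to 6584 CPM in acute, 24910 to 51920 CPM in cirrhotic and 50630 to 86080 CPM in healthy LSECs. Myc and the phosphatase Dusp2 fell, by 1.51 and 1.82. Heat shock chaperones rose in 10 of 15 cases and fell in 4, with Hspa1a (HSP70) the most, from 62.1, 37.2, 636, 25.1 and 485 CPM in the acute libraries to 3750 to 12400 CPM. Only 2 chaperones and not 4 were called lower by adjusted p, edgeR's quasi-likelihood test, DESeq2, other filters or a replicate block. The same held with DESeq2 or upper-quartile scaling. It also held when any acute library or any of cirrhosis replicates 1, 2, 5 and 6 was left out. Counts of Hspa1a may be divided with a near-identical copy. The part of cell handling in the levels of these genes, and of genes that move with them, was not tested.

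Promoters of 5 lists were searched for 6 motifs on both strands, and those of the immediate-early genes are taken first because most members rose. Among 15 genes whose promoter could be matched by symbol in the RefSeq table (250 bases before to 50 after the start of transcription, GRCr8), 4 held a serum response element (CArG box), namely Egr1, Egr2, Zfp36 and Klf6, against 1.64% of all 27457 promoters. Of these, Egr2 (log2 fold change 3.50) and Zfp36 (5.41) are shown as examples that rose, as Egr1 did. The dioxin response motif (GCGTG) stood in 10 of the 15 promoters, against 31.1% of all, and the AP-1 motif (TGA, any base, TCA) in none, against 7.33%. In other lists, the antioxidant response motif (TGAC, any 3 bases, GC) stood in 6 of 14 promoters of NRF2 targets, against 12.2% of all. Among these 6, Gclm and Prdx1 fell, Gpx2, Nfe2l2 and Mt1 rose and Mt2A was not called. The dioxin motif stood in 4 of 7 promoters of the aryl hydrocarbon receptor list. Ahrr and Cyp1b1 among them fell, and Arnt and Tiparp were not called. It also stood in 7 of 14 promoters of NRF2 targets, 9 of 15 of cholesterol genes and 4 of 11 of CXC chemokines. The sterol response motif (TCAC, any base, CCAC) stood in 0 of 15 promoters of cholesterol genes, against 1.13% of all. The stretch of Zfp36 lies on the minus strand at chr1:92799109-92799170 and that of Egr2 on the minus strand at chr20:21054485-21054554, with the element in capitals. The match describes the letters in this window and not binding.
Zfp36: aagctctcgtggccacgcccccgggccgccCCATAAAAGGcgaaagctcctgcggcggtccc
Egr2: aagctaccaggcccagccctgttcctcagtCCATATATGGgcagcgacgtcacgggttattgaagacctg
Zfp36, which encodes an RNA-binding protein that destabilises cytokine transcripts, was at 73.6 to 186 CPM in acute and at 2800 to 6830 CPM in cirrhotic libraries, and Egr2 at 4.17 to 11.7 CPM and 67.3 to 143 CPM. Both were named after their promoters had been searched. Klf6 (log2 fold change 0.04), which holds the same element, was not a DEG.

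Chemokines of the CXC list, which also holds Cx3cl1, differed in both directions. All 13 were called, 7 higher and 6 lower in cirrhosis. Those that rose were Cxcl9, Cxcl10 and Cxcl11, ligands of CXCR3 that draw in T cells, and Cxcl12, Cxcl13, Cxcl14 and Cx3cl1, with log2 fold changes of 2.48, 2.51, 2.54 and 2.28. Cxcl10 was at 29.7, 29.1, 69.8, 18.8 and 107 CPM in the acute libraries and between 1080 and 2110 CPM in cirrhosis (median 1350), a log2 fold change of 5.14 (SE 0.409, adjusted p = 1.57e-07), and Cxcl9 and Cxcl11 rose by 5.84 and 5.01. In healthy LSECs Cxcl10 was at 1220 to 3760 CPM, Cxcl9 at 186 to 1100 CPM and Cxcl11 at 38.9 to 184 CPM. Those that fell were Cxcl1, Cxcl2, Cxcl3 and Cxcl6, which draw in neutrophils, and Cxcl16 and Pf4, with log2 fold changes of -1.31 and -1.84. Cxcl2 was at 2050, 697, 1700, 1590 and 3350 CPM in the acute libraries and between 204 and 526 CPM in cirrhosis (log2 fold change -2.34, SE 0.351, adjusted p = 4.7e-05). Cxcl3 and Cxcl6 fell by 6.36 and 6.01, and Cxcl1 by 1.53 with groups that overlapped (1270 to 5490 CPM and 777 to 1290 CPM). Among 14 CC chemokines 9 rose and 4 fell. The monocyte attractants Ccl2 and Ccl7 fell by 2.58 and 2.08, and Ccl24, which draws in eosinophils, rose by 4.26. Of 24 genes of interleukins, TNF and NF-kappaB, 13 rose and 3 fell. Il6 rose by 2.79 (2.26 to 19 CPM and 27.1 to 43.1 CPM), and Tnf, with 0 to 2.4 CPM in acute and 0.94 to 71.7 CPM in cirrhotic libraries, was variable, and its adjusted p of 0.0427 from limma-voom was between 0.0668 and 0.0885 when any acute library was left out, and 0.000203 without cirrhosis replicate 3, its lowest.

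In 11 CXC chemokine promoters that could be matched, 5 held the NF-kappaB motif on either strand (GGG, any 3 bases, then TTCC, with overlapping matches allowed), against 5.36% of all promoters, and the 5 stretches are shown because the same motif stands before genes that fell and genes that rose. Cxcl1, Cxcl2 and Cxcl6 fell and are on the minus strand, at chr14:17479365-17479453, chr14:17467270-17467359 and chr14:17596465-17596535. Cxcl10 and Cxcl11 rose and are on the plus strand, at chr14:15988849-15988978 and chr14:15973624-15973693. Capitals mark the matches in the RefSeq sequence (GRCr8).
Cxcl1: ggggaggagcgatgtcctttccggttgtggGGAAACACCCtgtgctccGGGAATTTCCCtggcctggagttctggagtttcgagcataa
Cxcl2: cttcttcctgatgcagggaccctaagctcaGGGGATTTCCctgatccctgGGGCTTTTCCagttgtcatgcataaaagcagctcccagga
Cxcl6: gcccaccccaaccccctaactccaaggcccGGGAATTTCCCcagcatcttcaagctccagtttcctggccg
Cxcl10: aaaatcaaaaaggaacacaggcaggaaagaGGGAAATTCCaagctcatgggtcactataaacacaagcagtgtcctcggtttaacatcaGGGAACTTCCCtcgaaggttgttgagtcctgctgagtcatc
Cxcl11: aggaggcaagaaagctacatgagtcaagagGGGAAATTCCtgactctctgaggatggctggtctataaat
The matches describe letters within 250 bases before the start of transcription and 50 after it, and not binding.

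Interferon response and antigen presentation genes were higher in cirrhosis than after acute injury, but not than in healthy LSECs. Of 21 interferon response genes 18 rose and none fell (median log2 fold change 1.90). Their sum was 1199 to 4062 CPM in acute, 6882 to 11590 CPM in cirrhotic and 9230 to 14740 CPM in healthy libraries. Antigen presentation genes summed to 2354 to 3873, 5990 to 9765 and 5009 to 11110 CPM in these groups. Irf1, the transcription factor that interferon gamma induces, was at 66.3, 85.5, 89.6, 75.9 and 135 CPM in the acute libraries and between 1780 and 2690 CPM in cirrhosis (log2 fold change 4.61, SE 0.187, adjusted p = 5.25e-10). Its range in healthy LSECs was 3170 to 5000 CPM. Ifit1 spread over a wide range after acute injury, at 17.8, 0.681, 1.72, 9.65 and 104 CPM, and rose by 5.95, and Ifit2 rose by 3.23. Among 18 genes of antigen presentation 15 rose and none fell, with the class II gene RT1-Ba higher by 3.26 and the class II protease Ctss by 3.25. RT1 genes form a family of close copies, so that counts of single members are less certain. Of 13 leukocyte adhesion genes 8 rose and 1, Alcam, fell. Selp (P-selectin), which lets leukocytes roll, was at 22.9 to 48.8 CPM in acute and 787 to 1620 CPM in cirrhotic libraries (log2 fold change 5.16).

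Matrix genes rose, and the enzymes that degrade matrix went both ways. Of 20 collagens and basement membrane genes 14 rose and 3 fell, with a median log2 fold change of 3.38. Col3a1 was at 4.63, 3.43, 3.06, 2.21 and 12.7 CPM in the acute libraries and between 386 and 1430 CPM in cirrhosis (median 929), above healthy LSECs in all but 1 of the cirrhotic libraries. Col6a2, a chain of type VI collagen, rose by 5.41. The 3 that fell, Nid1, Nid2 and Lamc1, encode nidogens and a laminin chain of the basement membrane and fell by 1.03, 1.87 and 1.09, while Col4a1 and Col4a2, the chains of type IV collagen, were not called (log2 fold changes of 0.27 and 0.33). All 12 elastic fibre genes tested rose (median log2 fold change 4.10). Eln was at 0.463, 0.409, 0.25, 0.161 and 0.221 CPM in the acute libraries, 112 to 422 CPM in cirrhotic and 103 to 253 CPM in healthy ones. Markers of stellate cells and fibroblasts, which make much of this matrix, rose in 16 of 17 cases as well (median log2 fold change 4.57), and their part in the matrix genes was not tested.

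Among 14 metalloproteinases and their inhibitors 9 rose and 4 fell. The stromelysins Mmp3 and Mmp10 and the collagenase Mmp13 were nearly absent from cirrhotic LSECs. Mmp3 was at 54.5, 49.5, 107, 216 and 261 CPM in the acute libraries and between 0.111 and 0.669 CPM in cirrhosis (log2 fold change -8.95, SE 1.13, adjusted p = 1.04e-05), and Mmp13 at 20.2 to 239 CPM and 0.0199 to 0.457 CPM. Mmp9 fell by 2.90. The gelatinase Mmp2 and the inhibitor Timp3 rose by 4.76 and 4.17. TGF-beta genes were evenly divided, 8 higher and 8 lower of 17. Latent TGF-beta binding protein Ltbp4 and the TGF-beta induced protein Tgfbi rose by 3.85 and 4.46, whereas Ctgf and the activin subunit Inhba had log2 fold changes of -3.73 and -2.63. In the coagulation list 12 of 19 rose and 4 fell, and next to Vwf its protease Adamts13, a product of stellate cells, rose by 6.76, while the plasminogen activator inhibitor Serpinb2 fell by 5.76 and tissue factor (F3) by 1.80 with groups that overlapped.

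Genes of oxidant defence, protein turnover and ribosome production fell. Of 19 targets of NRF2, the factor that answers oxidants and electrophiles, 14 fell and 3 rose (median log2 fold change -0.97). Nqo1, a quinone reductase, was at 1100, 885, 803, 529 and 932 CPM in the acute libraries and between 37.1 and 105 CPM in cirrhosis (median 87.9, log2 fold change -3.50, SE 0.29, adjusted p = 2.3e-07). Srxn1 and Gsr, which regenerate peroxiredoxins and glutathione, had log2 fold changes of -2.87 and -2.18. The 3 that rose were Mt1 (0.88), Nfe2l2 itself (0.64) and Gpx2 (0.99), and the latter 2 overlapped between the groups and lost their call in some settings, with 1 higher without acute replicate 2. Of 8 genes of the aryl hydrocarbon receptor list 5 fell and 1 rose. Cyp1b1 was at 525, 513, 753, 956 and 602 CPM in the acute libraries and between 9.83 and 193 CPM in cirrhosis (log2 fold change -4.09), Ahr fell by 1.55 and its repressor Ahrr by 3.17. Cyp1a1 fell by 4.90 with 1 cirrhotic library inside the acute range. Cyp1a2, a hepatocyte enzyme, rose by 4.32.

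All but 2 of 40 ribosome biogenesis genes fell, with a median log2 fold change of -2.62. Nop2, a methyltransferase of ribosomal RNA, was at 195, 190, 177, 189 and 188 CPM in the acute libraries and between 15.4 and 18.8 CPM in cirrhosis (log2 fold change -3.44, SE 0.0721, adjusted p = 3.77e-11). The libraries of each group lay close together in this gene, and the groups were far apart. Mybbp1a, Rrp9 and Nhp2 fell by 3.55, 3.71 and 4.03. Dkc1 (-0.17) and Rrp12 (0.12) were not called. This list and that of amino acid uptake were chosen after their values had been seen. Of 67 cytosolic ribosomal proteins 33 fell and 2 rose, at smaller size (median log2 fold change -0.58), with log2 fold changes of -1.37 in Rpl4, -1.77 in Rps3a, 1.51 in Rps19 and 1.51 in Fau. Under upper-quartile scaling 16 were called lower, a setting that moved the median of all genes from 0.04 to 0.22.

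Of 41 proteasome genes 33 fell and 3 rose (median log2 fold change -1.35). Psma4, a subunit of the catalytic core, was at 212, 207, 190, 201 and 188 CPM in the acute libraries and between 42 and 55.4 CPM in cirrhosis (log2 fold change -2.10, SE 0.0814, adjusted p = 3.65e-10), and the regulatory subunits Psmd1 and Psmd5 fell by 1.96 and 2.43. The 3 that rose were Psmb8, Psmb9 and Psmb10, the catalytic subunits of the immunoproteasome that interferon gamma induces, by 0.68, 1.47 and 0.63. Psmb8 overlapped between the groups, and with replicate number as a block its log2 fold change was 0.37 and it was not called. In the list of one-carbon, serine and amino acid genes 15 of 20 fell and 2 rose. Asns (asparagine synthetase), a target of the integrated stress response, was at 186 to 267 CPM in acute and 7.63 to 18.5 CPM in cirrhotic libraries (log2 fold change -4.14), Mthfd1l and Psat1 fell by 4.17 and 4.21 and Trib3 by 3.11. The endoplasmic reticulum chaperone Hspa5 rose by 1.61. Of its list of 21 genes 5 rose, 5 fell and 11 were not called, beside 69.7% of all genes called.

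Among 25 hypoxia and glycolysis genes 11 fell and 5 rose. The glucose transporter Slc2a1 was at 382, 215, 519, 306 and 614 CPM in the acute libraries and between 26 and 61.9 CPM in cirrhosis (log2 fold change -3.01), and the glycolytic kinase Pgk1 fell by 2.30. Of 71 nuclear genes of oxidative phosphorylation 58 were not called, 7 rose and 6 fell, beside 69.7% of all genes called. The split between higher and lower turned on single choices, with 4 higher and 12 lower without acute replicate 8, 4 and 13 with library size alone, 14 lower with a replicate block and 2 lower with upper-quartile scaling. Targets of p53 and cell cycle inhibitors divided into 6 that rose and 8 that fell of 19. Ccng1, Phlda3 and Bax fell by 2.58, 3.12 and 2.12, the inhibitor Cdkn2b by 2.84, and Gadd45g rose by 5.32. Of 30 cell cycle genes 18 rose and 4 fell (median log2 fold change 1.01), with cyclin D1 (Ccnd1) higher by 2.83 and the replication helicase subunit Mcm7 lower by 2.33.

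Genes for extracellular vesicles, which the study examined in LSECs, were described in 3 lists, and no difference between the lists was tested. Of 27 genes of the ESCRT machinery that forms vesicles 13 fell and 3 rose, with Hgs and Stam, which gather cargo, lower by 1.51 and 1.83. With upper-quartile scaling 8 ESCRT genes were lower. Mvb12a and Mvb12b, of ESCRT-I, were not called. Mvb12a was at 20.9 to 28.4 CPM in acute and 23.8 to 37.1 CPM in cirrhotic libraries (log2 fold change 0.29, adjusted p = 0.0472), and the log2 fold change of Mvb12b, 0.07, changed sign in 2 other settings. Tetraspanins and raft proteins rose in 13 of 19 cases and fell in 2. Cd9 was at 4.98, 8.83, 4.11, 6.82 and 2.37 CPM in the acute libraries and between 42.7 and 107 CPM in cirrhosis (log2 fold change 3.82, SE 0.394, adjusted p = 1.69e-06). Cd81 rose by 2.04, Tspan7 by 3.61 and the raft protein Flot2 by 0.88, while Cd63, common on exosomes, fell by 0.93. Summed over the list, levels were 1409 to 1642 CPM in acute, 3410 to 4503 CPM in cirrhotic and 5275 to 10400 CPM in healthy libraries. The rises given here are over acute injury, whereas the study compared its stages with healthy LSECs. Of 22 Rab GTPases and SNAREs of vesicle release 7 rose, 2 fell and 13 were not called, beside 69.7% of all genes called. Their median log2 fold change of 0.04 was that of all genes tested. Among those that rose were Rab27a, which docks vesicles at the membrane, by 3.65 (6.82 to 8.8 CPM and 83.2 to 109 CPM), and Rab3a by 4.06.

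Tropomyosins, which stabilise actin filaments, moved in opposite directions. Tpm1 was at 11, 9.29, 11.1, 21.8 and 10.5 CPM in the acute libraries and between 32 and 37.5 CPM in cirrhosis (median 33.4). Acute replicate 4 stood above the other acute libraries, and the groups did not overlap (log2 fold change 1.48, SE 0.177, adjusted p = 6.32e-06). Tpm2 rose by 2.95, from 1.15 to 4.74 CPM to 12.2 to 21 CPM. Tpm4 fell by 1.95, from 869 to 1200 CPM to 227 to 326 CPM. Of 20 tropomyosin and contractile genes, 10 rose and 5 fell. In the list of sphingolipid enzymes and receptors 7 of 21 rose, 6 fell and 8 were not called, beside 69.7% of all genes called. Their median log2 fold change was 0.18. The sphingosine kinase Sphk1 was higher by 5.48 and the ceramide synthase Cers6 lower by 2.96. Cholesterol synthesis genes rose in 8 of 23 cases and fell in 2, with Hsd17b7 lower by 2.02. Of these genes 13 were not called, beside 69.7% of all genes called. With upper-quartile scaling 14 were higher, and without acute replicate 8 only 1 was lower.

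In each marker list of other liver cells, more members were called higher than lower in cirrhotic libraries, together with the endothelial genes. Summed levels did not follow this in every cell type. Cholangiocyte markers summed to 36.41 to 107.1 CPM in acute and 11.05 to 41 CPM in cirrhotic libraries. Hepatocyte markers rose in 18 of 19 cases (median log2 fold change 4.70), and their sum was 167.9 to 1009 CPM in acute, 3724 to 17230 CPM in cirrhotic, 1530 to 6170 CPM in fibrotic and 1581 to 33820 CPM in healthy libraries. Hnf4a, the master regulator of hepatocytes, was at 0.381, 0.191, 0.167, 0.806 and 0.411 CPM in acute and 17.9 to 31.3 CPM in cirrhotic libraries. All 15 Kupffer cell and macrophage markers tested rose (sum 115.5 to 290.3 CPM in acute and 1417 to 4003 CPM in cirrhotic libraries), among them Clec4f, a lectin of Kupffer cells, by 4.63, and Lyz2 by 5.07. Among stellate cell and fibroblast markers, Lrat, which stores vitamin A, was higher by 4.40, Dcn by 5.50 and Pdgfrb by 5.49. The sum of these markers did not separate the groups (1330 to 2145 CPM in acute, 696.1 to 2075 CPM in cirrhotic libraries), since Reln, the one that fell, makes up most of it after acute injury. T and NK cell markers rose in 11 of 13 cases and B cell markers in 7 of 8, from sums of 11.46 to 22.66 and 1.221 to 3.139 CPM to 134.1 to 286.6 and 32.35 to 199.3 CPM. Cd3e of T cells was at 0 in 2 acute libraries and Cd79a of B cells in 1. Neutrophil markers rose in 6 of 8 cases, but their sums overlapped (32.61 to 228.3 CPM and 19.68 to 69.07 CPM). Genes near 0 in the acute libraries could pass the count filter through the cirrhotic libraries alone. Such genes could hardly be called lower, so the counts of T, NK, B cell and neutrophil markers called are described only. Among all genes tested with a mean log2 CPM under 0, 61.4% were higher. The part of the other liver cell types in the lymphatic, Notch, angiocrine, matrix, chemokine, interferon, antigen presentation and hepatocyte genes given above was not tested.

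**Figure D4:**
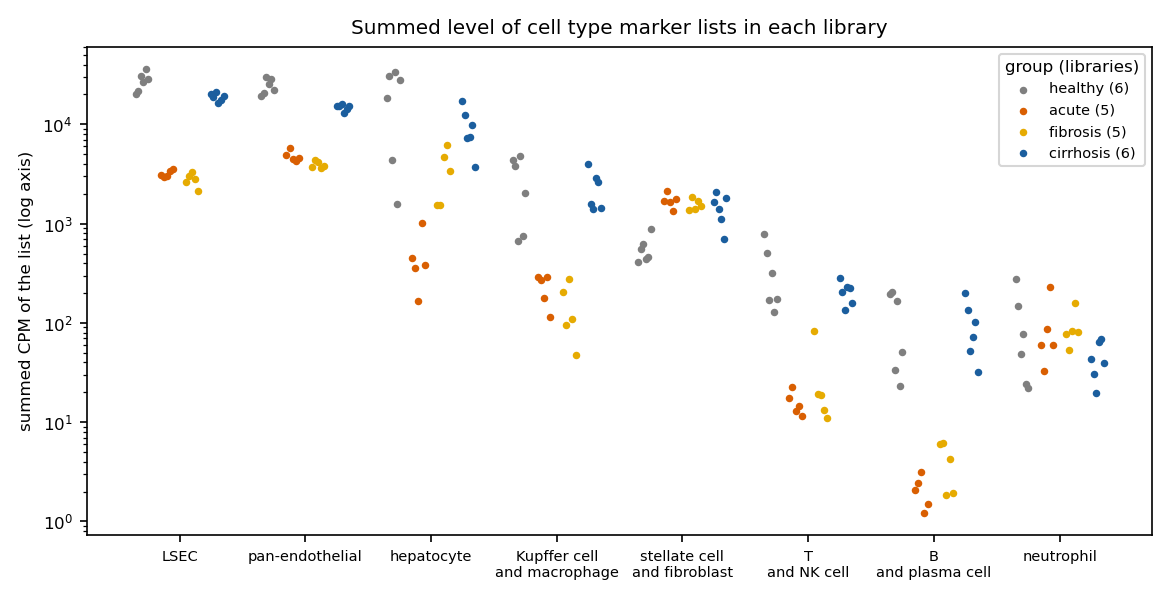
Summed CPM of 8 cell type marker lists in each of the 22 libraries of the CCl4 experiment, untreated ones included (log axis), one point per library, coloured by group. Cirrhotic libraries lie above acute ones in the sums of LSEC, endothelial, hepatocyte, Kupffer cell, T cell and B cell markers, and the groups overlap in stellate cell and neutrophil markers.

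The comparison of fibrosis with healthy LSECs, which shares no library with that of cirrhosis and acute injury, ran the opposite way for most of these genes. There, 71.2% of 14538 genes tested were DEG, 35.8% higher and 35.4% lower in fibrosis. Of 5162 genes that were higher in cirrhosis than in acute injury and tested in both comparisons, 71.2% were lower in fibrosis than in healthy LSECs and 3.87% higher. Of 4727 that were lower in cirrhosis, 74.3% were higher in fibrosis and 3.49% lower. Among 4442 genes not called between cirrhosis and acute injury these shares were 31.7% higher and 28.1% lower. By their group means, fibrotic LSECs lay between acute and cirrhotic LSECs and nearer to acute in 60.7% of the genes higher in cirrhosis, and in 75.8% of those lower. Healthy LSECs lay between the groups and nearer to cirrhosis, or beyond cirrhosis, in 28.2% and 50.3% of the former and in 20.4% and 58.6% of the latter. Genes with cirrhosis apart from all other groups, such as Ccl21, Mmrn1 and Ednrb, were an exception to this order. Healthy rats are labelled untreated, so for most of these genes the 4 groups did not lie in the order of their exposure to CCl4. What acute and fibrotic libraries share cannot be told from the labels. Age and time on phenobarbital may go with length of exposure, and no cause was tested.

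**Figure D5:**
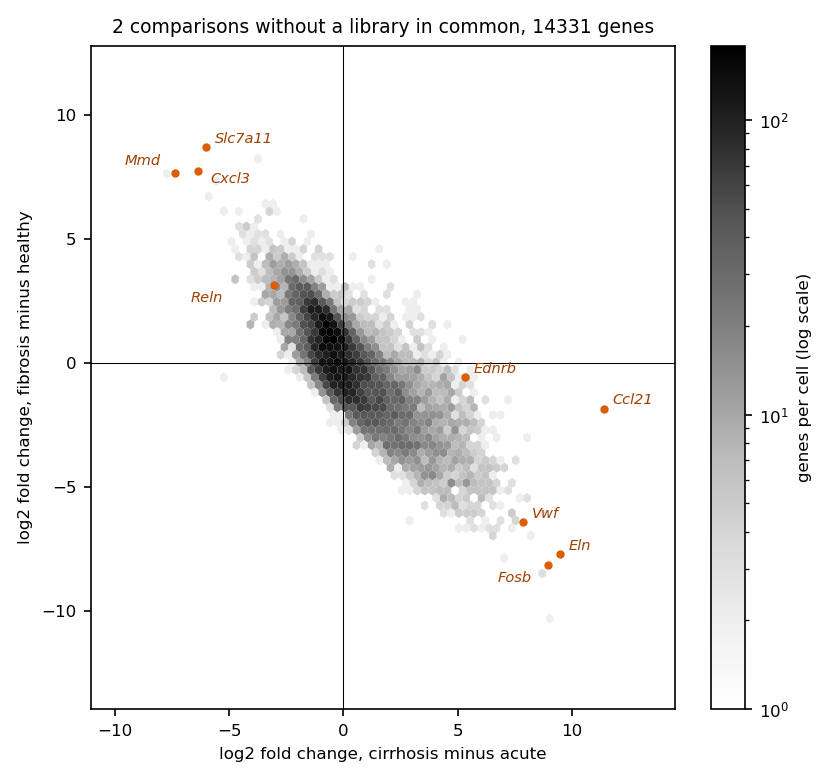
Log2 fold change of fibrosis minus healthy LSECs against that of cirrhosis minus acute injury over 14331 genes tested in both, as counts per hexagon, with 9 genes named. Most genes lie from the upper left to the lower right, and Ccl21 and Ednrb lie to the right of that band.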

How the data were processed

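The authors sequenced poly(A) RNA of LSECs with a strand-specific kit, checked reads with FastQC, trimmed them with Trim Galore, mapped them with STAR to Rnor 6.0 and quantified genes with RSEM (versions are not given in the sources used here). The deposited values are expected counts per gene, which need not be whole and are not normalized, and they were rounded to whole numbers. The table held 32623 genes, and groups were taken from the labels. Genes were filtered with filterByExpr, scaled by TMM (edgeR 4.0.16) and tested with limma-voom (limma 3.58.1, R 4.3.3), as in the study's methods, with a call at an unadjusted p under 0.05 and a fold above 1.5. Adjusted p-values are from limma with Benjamini-Hochberg adjustment over 15005 genes. CPM were scaled over the 22 CCl4 libraries, and log2 CPM used a pseudocount of 0.5. The scripts were tested on simulated data.

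The members and gene lists were chosen with earlier results of these data known, and 3 lists (ribosome biogenesis, one-carbon and amino acid uptake, hepatocyte metabolism) after their values had been seen. Named genes are the 15 largest rises and falls among genes whose mean log2 CPM was 3 or more and whose groups did not overlap, up to 4 called members per list and direction, the 3 most abundant markers of each marker list, and 8 genes that the study's text names. Cdh5, Cxcl1, Cxcl12, Cxcl13, Cxcl16, Cx3cl1, Egr2, Zfp36 and the genes given as not called were named after their values were seen. Symbols that several genes share were left out of lists (36 genes), and 22 list entries had no match. Alternatives were edgeR's quasi-likelihood test, DESeq2 1.42.0, other filters and scalings, a replicate block and leaving out each library. Same-numbered libraries of both groups did not deviate together (correlations of -0.096 to 0.0948), so that the numbers were not used as pairs. Libraries of a group differed by more than sampling noise (chi-square per degree of freedom of at least 28.1), and each was counted once. Counts limit the precision of genes near 0, and such limits cover counting error only. Promoters are from the RefSeq table for GRCr8, which is another build than that of the counts, so positions are given for promoter sequences alone. Libraries of the thioacetamide experiment were not used here, and a few genes that the rule names are not reported here. Figures were drawn with matplotlib 3.10.9.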

Additional observations from a re-analysis of the deposited data

Results flagged for a closer look

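In 506 groups of 5 or 6 values, 29 values stood apart from the rest of their group (Dixon's 95% critical value). About 1 in 20 groups does so by chance. Of the acute libraries, replicate 8 gave most of them. Its 10 most abundant genes took 5.94% of counts (others at most 5.49%), and it was highest in the summed levels of angiocrine genes (1724 CPM, others at most 1390) and cholesterol genes (1438 CPM, others at most 1018). It was also the highest acute library in Hey1 (0.6 CPM), Bmp6 (276 CPM), Inhba (48.2 CPM), Ccl24 (24.5 CPM), Ahr (365 CPM) and Tbxa2r (2.68 CPM). Acute replicate 4 had the highest total of its group (36916992 counts) and stood apart in Nid1 (813 CPM), Gpx2 (0.461 CPM), Tpm1 (21.8 CPM) and, as the lowest, Egr3 (0.161 CPM, others at least 0.758). Acute replicate 3 was lowest in Mybbp1a (601 CPM).

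Of the cirrhotic libraries, replicate 2 was lowest in the summed level of leukocyte adhesion genes (7875 CPM, others at least 10610) and in Fgf23 (107 CPM), Cxcl11 (35.8 CPM), Cd63 (174 CPM) and Sphk1 (22.8 CPM), and highest in Fos (3750 CPM). Cirrhosis replicate 6 was highest in the sums of TGF-beta genes (4950 CPM, others at most 3539) and coagulation genes (11820 CPM, others at most 8109), and in Pus7 (5.23 CPM), Nos3 (493 CPM) and Tpm4 (326 CPM). Replicate 1 was highest in Ddah1 (58.4 CPM), replicate 5 lowest in Ltbp2 (10.1 CPM) and replicate 3 lowest in Tnf (0.94 CPM, others at least 27.9).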

How the results depend on the processing

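The number of DEG stayed within 1.5 times of 10459 in all settings tried, at 10411 with edgeR's quasi-likelihood test, 10321 with DESeq2, 10113 with upper-quartile scaling and 12838 of 22761 genes without a filter on low counts. Leaving out each library gave 10110 to 10650 DEG, 5434 to 5819 higher and 4676 to 4922 lower in cirrhosis, and 9956 to 10481 DEG between fibrosis and healthy LSECs. With replicate number as a block, 10249 genes were DEG, though the numbers did not pair the libraries. Upper-quartile scaling moved the median log2 fold change of all genes from 0.04 to 0.22 and the share of DEG that were higher from 54.2% to 60.8%. Under it 8 ESCRT genes in place of 13 were lower, and 14 cholesterol genes in place of 8 higher. Genes near 0 changed sign. The log2 fold change of Cdh5 was 0.0088 without a filter, 0.12 with upper-quartile scaling and between -0.14 (without acute replicate 8) and 0.036 (without acute replicate 2) when a library was left out, and that of Mvb12b was -0.0056 with quality weights and -0.026 with library size alone. Calls were lost in at least 1 setting for Cav1, Cav2, Nfe2l2, Gpx2, Psmb8, Psmb10 and Tnf. The cause was not tested.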

Other observations

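Further gene lists were described by the same counts. Of 27 lysosome genes 15 were higher and 3 lower in cirrhosis (median log2 fold change 0.64), and their summed level was 8629 to 9517 CPM in acute and 8986 to 12410 CPM in cirrhotic libraries. Of 19 circadian clock genes 7 were higher, 2 lower and 10 not called (median log2 fold change 0.12), beside 69.7% of all genes called. Cholangiocyte markers were higher in 7 of 9 cases and lower in 1, while their sum was 36.41 to 107.1 CPM in acute and 11.05 to 41 CPM in cirrhotic libraries. Erythroid and platelet markers were higher in 3 of 4 cases. Of 13 mitochondrially encoded genes 11 were not called and 2 were lower, but the direction depended on the setting, with 6 higher and 1 lower under upper-quartile scaling and 3 higher and 1 lower with a replicate block. All 17 genes of hepatocyte metabolism, a list chosen after its values were seen, were higher in cirrhosis (median log2 fold change 6.87), with sums of 17.47 to 57.49 CPM in acute, 863.8 to 2363 CPM in cirrhotic and 611 to 12120 CPM in healthy libraries.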
